A study of Mus musculus with 8 samples.

Results

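Mrap, Gm42047 and 1110028F11Rik are 3 of the 55422 features counted in single cells of chimaeric mouse embryos, built from cells that lack all 3 TET enzymes and wild-type host cells. They were selected because an earlier analysis of the same libraries had found them lower in every Tet triple-knockout (Tet-TKO) library of a cluster of blood progenitor-like cells at embryonic day (E) 8.5. Their levels in blood progenitors are therefore given as a description with no test. The question addressed was whether the lower level in Tet-TKO cells was limited to blood progenitors, and for that the other cell classes and the earlier stage were used. The answer differed between the members. Gm42047 was lower in Tet-TKO libraries in all 23 other E8.5 classes that were fitted. In the few cells richest in haemoglobin it was no lower in Tet-TKO libraries 2 and 3, from 5 and 6 counts. In erythroid-like cells of the Tet-TKO libraries most of its counts came from cells without tdTomato. The locus of the Gm42047 counts is uncertain. Mrap was high in the blood classes and elsewhere mostly followed the haemoglobin counts of WT host cells, with 4 of 49 class sums above them. 1110028F11Rik gave too few unique molecular identifiers (UMIs, each one captured transcript) elsewhere to be tested in any single class.

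TET enzymes oxidise 5-methylcytosine and thereby start the removal of DNA methylation. In the yolk sac, primitive erythrocytes arise from haematoendothelial progenitors through blood progenitors and fill with embryonic haemoglobin as they mature. Mrap encodes melanocortin 2 receptor accessory protein, a small membrane protein that brings the receptor for adrenocorticotropic hormone (ACTH) to the cell surface and lets it signal, best known from the adrenal cortex. Gm42047 and 1110028F11Rik are annotated as non-coding transcripts, and no function is attached to either name here.

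Tet-TKO embryonic stem cells of a C57BL/6J-129Sv background, which carried the tdTomato fluorescent protein on histone H2B under the CAG promoter, were injected into C57BL/6J wild-type (WT) blastocysts. Pooled embryos were dissociated and sorted as live singlets, so that each Tet-TKO library holds the tdTomato-positive cells and each WT host library the tdTomato-negative cells. Of the libraries, 4 Tet-TKO and 2 WT host ones came from E8.5 embryos, and E7.5 embryos gave 1 of each sort. All Tet-TKO cells came from 1 stem cell line, so genotype, strain background and passage through culture cannot be told apart. The libraries were made with the 10x Genomics 3′ kit, and p-values measure the spread between libraries, which may be technical.

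The deposited matrices held between 65601218 and 136982886 UMIs per library. After filtering, Tet-TKO libraries 1 to 4 held 7045, 9552, 2304 and 1012 cells and WT host libraries 1 and 2 held 8260 and 9038, which made 37211 cells at E8.5, and E7.5 added 12655 cells. Tet-TKO libraries 3 and 4 were the deepest, with 40386 and 68704 UMIs in the median cell against 12176 to 18763 in the other E8.5 libraries. Tet-TKO libraries 1 and 2 resembled each other in total counts more than either resembled 3 or 4. Tet-TKO libraries 3 and 4 likewise resembled each other more than either resembled 1 or 2. The main tests nevertheless count all 4 as separate libraries. A tdTomato UMI was found in 60.8% to 87.2% of cells of the Tet-TKO libraries and in 0.569% and 0.841% of the WT host libraries at E8.5. No pair of libraries shared more than 0.434% of the cell barcodes of the smaller. Cells were grouped into 29 classes at E8.5, of which 19 could be named from marker genes as X-like. The members themselves were not used for the grouping. The blood progenitor-like class held 276, 375, 62 and 24 Tet-TKO cells and 113 and 507 WT host cells.

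Mrap (ENSMUSG00000039956) lies at chr16:90738207-90749785 on the plus strand of GRCm38 (mm10) and is protein coding with 4 annotated transcripts. Gm42047 (ENSMUSG00000110631) lies at chr8:121833247-121841178 on the plus strand and is annotated as a long non-coding RNA with 2 transcripts, of which the longest has 4 exons and 4988 nucleotides. It lies within the span of Gm20388, a gene annotated as protein coding on the same strand, which had no UMI in blood progenitor-like cells or outside the blood. 1110028F11Rik (ENSMUSG00000085972) lies at chr11:87701396-87705331 on the plus strand within an intron of Rnf43, a gene transcribed from the same strand, and its longest transcript has 837 nucleotides. The 3′ kit reads the end of a transcript, so the last 240 bases of the longest transcript of each non-coding member, from the GENCODE M21 transcripts, are shown as one of the ends that could have been read. The other transcript of each ends elsewhere, at position 121835108 for Gm42047 and 87704989 for 1110028F11Rik, and the tables of counts do not show which end was read. Capitals mark the letters ATTAAA, a common variant of the polyadenylation signal.
Gm42047, chr8:121840939-121841178, plus strand: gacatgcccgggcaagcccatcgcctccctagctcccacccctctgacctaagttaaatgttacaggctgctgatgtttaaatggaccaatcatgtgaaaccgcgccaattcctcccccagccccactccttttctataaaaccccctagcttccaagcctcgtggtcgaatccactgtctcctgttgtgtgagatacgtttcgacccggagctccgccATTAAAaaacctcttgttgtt
1110028F11Rik, chr11:87705092-87705331, plus strand: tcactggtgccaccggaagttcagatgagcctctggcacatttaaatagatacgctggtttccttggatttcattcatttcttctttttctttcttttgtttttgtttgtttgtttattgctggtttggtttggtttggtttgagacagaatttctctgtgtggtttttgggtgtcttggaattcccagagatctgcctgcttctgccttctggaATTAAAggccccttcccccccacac
Each stretch held ATTAAA once, starting 21 bases from the end in Gm42047 and 25 bases from the end in 1110028F11Rik, and neither held AATAAA. On the transcript strand, ATTAAA was found in the last 240 bases of 15.3% and AATAAA in 33.7% of the 133463 annotated transcripts of at least that length. The end of Gm42047 was not unique. Of its 210 windows of 31 bases, 209 also occurred in transcripts of 7 other genes, among them Sos2 and Ybey, whereas no window of the last 240 bases of Mrap or 1110028F11Rik occurred in another gene. How the counting shared such reads out is not given in the sources used here, so the values of Gm42047 are uncertain as to their locus. The stretch held 10 CpG sites with a GC content of 52.1%, against 2 sites and 42.9% in 1110028F11Rik.

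In the blood progenitor-like class Mrap was nearly absent from the Tet-TKO libraries. Its level was 0.585, 0.171, 0 and 0 CPM (counts-per-million of the UMIs of the class in a library) in Tet-TKO libraries 1 to 4, while WT host libraries 1 and 2 gave 13.1 and 94.4 CPM. The 2 WT host libraries lay far apart, yet both stood above every Tet-TKO library. In all, 5 Mrap UMIs were counted in Tet-TKO cells and 822 in WT host cells, a 278-fold lower pooled level with a 95% interval of 119 to 858 that covers counting error only. The edgeR log2 fold change was −7.62 ± 0.90 (SE). Cells with at least 1 Mrap UMI made up 13.3% and 63.1% of the WT host class, with a median of 18954 and 16660 UMIs per cell. In the brain and spinal cord-like class of the same libraries, which should lack Mrap, the shares were 1.89% and 1.74% at 14663 and 12756 UMIs per cell. With every cell thinned to 5000 UMIs, the shares were 7.34% and 31.7% in the blood progenitor-like class against 0.871% and 0.782% in the brain and spinal cord-like class, and thinning left out 4 and 15 blood progenitor-like cells. In the Tet-TKO class the unthinned shares were 0.725%, 0.267%, 0% and 0%, of 276, 375, 62 and 24 cells, where 0 of 62 and 0 of 24 cells allow shares of up to 4.84% and 12.5%.

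Gm42047 was not detected in any Tet-TKO blood progenitor-like cell. It stood at 0 CPM in all 4 Tet-TKO libraries and at 5.88 and 16.2 CPM in WT host libraries 1 and 2, from 149 UMIs. Set against a floor of 3 counts over the Tet-TKO class, the level was at least 83.9-fold lower in Tet-TKO cells. 1110028F11Rik stood at 0.439, 0.343, 0.949 and 0.952 CPM in Tet-TKO libraries 1 to 4 and at 6.34 and 5.24 CPM in the WT host libraries. These groups did not overlap, and they rest on 10 and 58 UMIs, a 9.80-fold lower pooled level with a counting interval of 4.97 to 21.5 and a log2 fold change of −3.28 ± 0.47 (SE). Over all genes tested in this class, 0.217% were called in either direction and 9.06% had every Tet-TKO library below every WT host library. Nothing is read from these shares for the members, which were selected on this contrast. The plot of levels by library in blood progenitor-like cells shows the gap for each member.

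**Figure D1:**
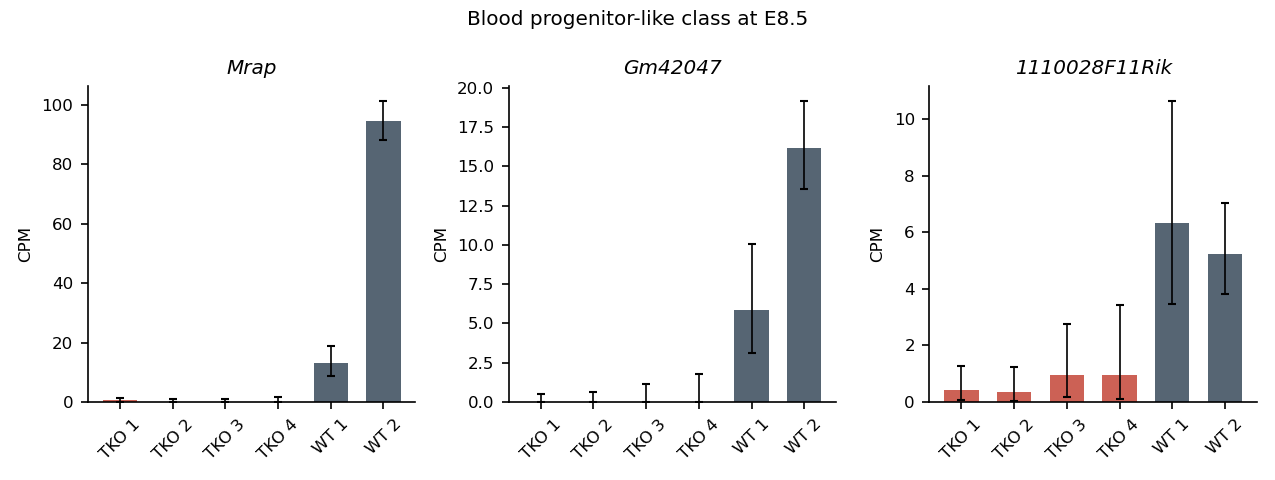
Level of each member in blood progenitor-like cells at E8.5, in CPM on the vertical axis from 0, with 1 bar for each of the 4 Tet-TKO (red) and 2 WT host (grey) libraries and 95% Poisson intervals that cover counting error only. The Tet-TKO bars of Mrap lie at or below 0.585 CPM and those of Gm42047 at 0, while the WT host bars of Mrap reach 13.1 and 94.4 CPM.

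The class was not made up alike in the 2 genotypes. Summed blood progenitor markers reached 1303 to 1549 CPM in the Tet-TKO libraries and 1345 to 1436 CPM in the WT host libraries. The 6 myeloid markers summed to 2.34 to 6.33 CPM in Tet-TKO libraries, with between 1 and 5 of them detected and Csf1r at 0 in all 4, against 87.8 and 41.9 CPM in WT host libraries 1 and 2, of which the second also had Csf1r at 0. The 6 megakaryocyte markers summed to 11.9 to 26.6 CPM against 63.4 and 80.4 CPM, with Ppbp at 0 in every library. The 7 visceral endoderm markers summed to 1.03 to 3.22 CPM in Tet-TKO libraries and to 42.5 and 22.7 CPM in WT host libraries, and in brain and spinal cord-like cells to 1.32 to 4.15 CPM against 35.1 and 19.0 CPM. Apart from the split given next, the part of these markers in the levels of the members was not tested. Haemoglobin made up 10892, 29798, 36568 and 15406 CPM in Tet-TKO libraries 1 to 4, while WT host libraries gave 10640 and 67242 CPM, which overlapped.

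Within WT host blood progenitor-like cells, 1110028F11Rik was found mostly in cells with markers of other blood lineages. The class was split by whether a cell held a UMI of any of the 12 myeloid and megakaryocyte markers, a split chosen after the values were seen. In WT host cells 1110028F11Rik stood at 12.3 CPM in the 219 cells with such a UMI and at 1.75 CPM in the 401 cells without one. In Tet-TKO cells it stood at 1.30 CPM in 185 cells and 0.239 CPM in 552 cells. Among cells without such a UMI, WT host library 1 held no 1110028F11Rik UMI in 55 cells and library 2 held 12 in 346 cells, or 2.08 CPM, against 0.378, 0, 0.536 and 0 CPM in Tet-TKO libraries 1 to 4, so the groups overlapped. Mrap in cells without such a UMI stood at 10.9 and 112 CPM in WT host libraries and at 0.189, 0.227, 0 and 0 CPM in Tet-TKO libraries. Gm42047 in these cells stood at 2.73 and 16.1 CPM in WT host libraries and at 0 in all 4 Tet-TKO libraries. The choice of Mrap and Gm42047 on this class fixes the direction of these differences, and nothing is read from it.

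In WT host cells Mrap levels were higher where haemoglobin made up more of the cell's RNA. Blood progenitor-like cells were binned by the share of their UMIs that came from haemoglobin genes, a rough measure of how far a cell has moved towards the erythrocyte. Levels were taken as CPM with haemoglobin UMIs left out of the total. In brain and spinal cord-like cells haemoglobin made up 0.0600% and 0.159% of UMIs in WT host libraries 1 and 2. Tet-TKO libraries gave 0.000576% to 0.00419% there. Whether the lower bins hold cells of like maturity in both genotypes was not tested. In WT host cells with a share under 0.1% no Mrap UMI was found in 21 cells, a bin whose floor of 3 counts is 8.08 CPM. In WT host libraries 1 and 2 the level was 11.8 and 20.2 CPM at 0.1 to 1%, in 64 and 89 cells, and 24.5 and 102 CPM at 1 to 10%, in 30 and 291 cells. At 10% and over it was 160 CPM, from 125 cells of library 2 alone. Tet-TKO cells of the same class stood at 0, 0.861 and 0.107 CPM in the first 3 bins, with 139, 188 and 402 cells, and at 0 in 8 cells of the last bin. Gm42047 stood at 5.79, 7.09 and 3.50 CPM in the first 3 bins of WT host library 1 and at 0, 15.7, 14.5 and 26.2 CPM in the 4 bins of library 2, of which the first held 2 cells. It was not higher in the third bin than in the second in either library, and it was at 0 in every Tet-TKO bin. 1110028F11Rik stood at 11.9 CPM in WT host cells with a share of 0.1 to 1%, above the 3.84 and 2.73 CPM of the third and the last bin. Its 5.38 CPM in the first bin rest on 2 UMIs and lie under the floor. Their counting interval of 0.652 to 19.5 CPM covers 11.9, so the first bin cannot be ranked. Tet-TKO cells with a share of 0.1 to 1% stood at 1.08 CPM. The plot of levels by haemoglobin share shows the pooled levels of this class, on which the members were selected.

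With the erythroid-like class and unnamed cluster 22 added to the bins, Mrap and Gm42047 were found in haemoglobin-rich cells of the Tet-TKO libraries. In the erythroid-like class of these libraries most UMIs of both came from cells without tdTomato, as given below. At 10% and over Mrap stood at 89.4, 112 and 71.8 CPM in 12, 8 and 4 cells of Tet-TKO libraries 2, 3 and 4, the last from 1 UMI, and at 213 and 239 CPM in WT host libraries. Gm42047 stood there at 37.2 and 25.8 CPM in Tet-TKO libraries 2 and 3, from 5 and 6 UMIs. It was at 0 in the 4 cells of Tet-TKO library 4, whose floor of 3 counts is 215 CPM. WT host libraries stood at 18.6 and 24.2 CPM, no higher than Tet-TKO libraries 2 and 3. At 1 to 10% Mrap stood at 0, 1.19, 2.87 and 14.6 CPM in Tet-TKO libraries and at 97.5 and 106 CPM in WT host libraries.

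**Figure D2:**
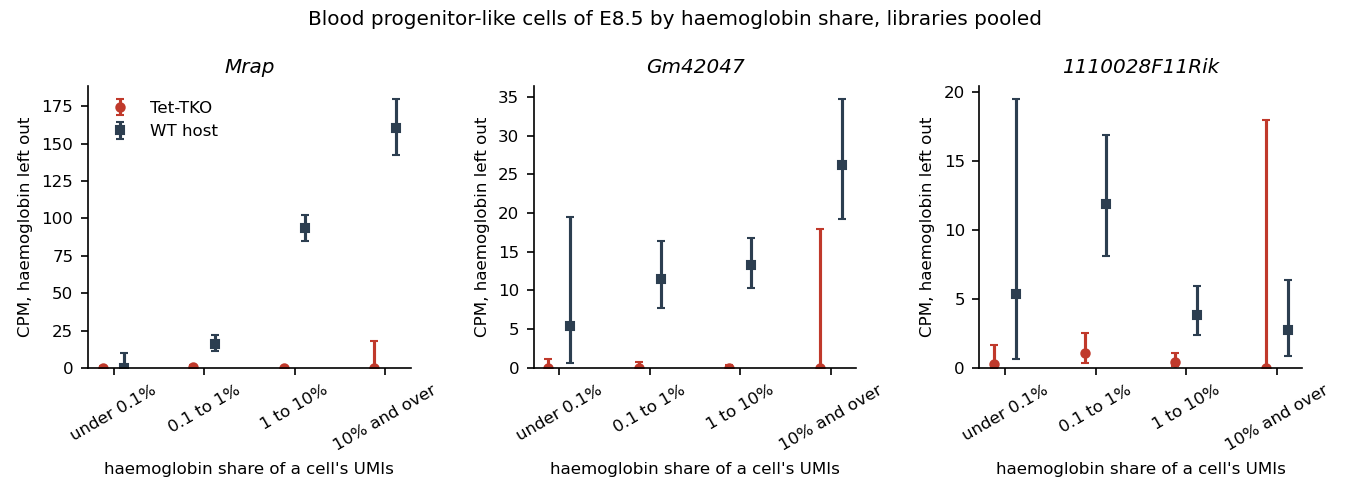
Level of each member in blood progenitor-like cells at E8.5 by the share of a cell's UMIs from haemoglobin genes (horizontal axis, 4 bins), in CPM with haemoglobin left out of the total, pooled over the libraries of each genotype (red circles Tet-TKO, dark squares WT host) with 95% Poisson intervals. In this class WT host Mrap goes from 0 to 160 CPM and Tet-TKO Mrap stays at or below 0.861, with both at 0 in the lowest bin.

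Few Tet-TKO cells reached the erythroid-like class, with 12, 36, 15 and 7 cells against 939 and 1767 WT host cells. Mrap stood there at 0, 18.8, 34.6 and 131 CPM in Tet-TKO libraries 1 to 4 and at 138 and 190 CPM in the WT host libraries. Library 4, with under 10 cells, was left out of the fit. Mrap was called lower in the other 3 libraries with a log2 fold change of −3.22 ± 0.42 (SE, edgeR quasi-likelihood test, Benjamini-Hochberg adjusted p = 0.00126), a call lost without Tet-TKO library 2 (adjusted p = 0.0192). It was also lost without correction between libraries (log2 fold change −1.92, edgeR adjusted p = 0.0738). Haemoglobin made up 0.754%, 3.67%, 5.16% and 9.63% of the UMIs of this class over Tet-TKO libraries 1 to 4, each lower than the 10.5% and 17.1% of the WT host libraries, and its part in the call was not tested. Gm42047 stood at 2.69, 7.84, 7.68 and 59.0 CPM in Tet-TKO libraries and at 19.7 and 20.8 CPM in WT host libraries, so that library 4 lay above both. It was called lower over the other 3 with a log2 fold change of −1.87 ± 0.34 (SE, edgeR adjusted p = 0.00531). The Gm42047 call ended when any of Tet-TKO libraries 1 and 2 or WT host libraries 1 and 2 was left out, in that order with edgeR adjusted p-values of 0.0154, 0.0310, 0.0102 and 0.0448. In this class 1.80% of genes tested were called lower. 1110028F11Rik had 1 UMI in Tet-TKO and 7 in WT host erythroid-like cells and was not tested.

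The Mrap and Gm42047 UMIs of the Tet-TKO erythroid-like cells came mostly from cells without tdTomato. The 36 cells with at least 1 tdTomato UMI held 5 Mrap UMIs, all in library 2, or 3.45 CPM, and 2 Gm42047 UMIs, or 1.38 CPM. The 34 cells with none held 54 Mrap UMIs, or 110 CPM, and 19 Gm42047 UMIs, or 38.6 CPM. All 7 cells of library 4 were without tdTomato. Over all E8.5 Tet-TKO cells, Mrap stood at 0.0368 CPM in 13396 cells with tdTomato and at 0.751 CPM in 6517 cells without, and Gm42047 at 0.255 and 2.65 CPM. 1110028F11Rik stood at 0.0583 and 0.0635 CPM from 19 and 6 UMIs. How many of them were WT host cells in the wrong sorted fraction was not tested.

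The cells outside the blood classes, with haematoendothelial progenitor-like cells and cluster 22 left out too, numbered 18362 in Tet-TKO and 12834 in WT host libraries at E8.5. Mrap stood there at 0.0163, 0.0181, 0.0562 and 0 CPM in Tet-TKO libraries and at 1.58 and 2.48 CPM in WT host libraries, with no overlap. It was called lower with a log2 fold change of −6.33 ± 0.54 (SE, edgeR adjusted p = 0.00317). In these cells 1.37% of genes tested were called lower, 1.76% were called in either direction and 22.8% had every Tet-TKO library below every WT host library. Leaving out Tet-TKO library 1 or 2 or WT host library 1 or 2 ended the call, with edgeR adjusted p-values of 0.0109, 0.0135, 0.0190 and 0.0113. The call was also lost with like libraries summed, as given below.

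In WT host libraries the level of Mrap outside the blood moved with the haemoglobin UMIs of the same cells. Haemoglobin UMIs made up 1098 and 2196 CPM outside the blood in WT host libraries 1 and 2 and 10.1 to 71.9 CPM in Tet-TKO libraries. At the ratio of Mrap to haemoglobin found in the blood progenitor-like and erythroid-like cells of the same library, 141 and 206 Mrap UMIs were expected outside the blood, and 153 and 204 were counted. In Tet-TKO libraries 1 to 4, 2, 2, 5 and 0 were counted against 0.243, 0.522, 0.310 and 0.265 expected, so that 3 of the 4 had more than the ratio gave. Over the 49 sums of single WT host classes, 357 Mrap UMIs were counted and 347 expected, and 45 sums lay within the 95% Poisson range of their expectation. Where few UMIs were expected the range began at 0, so such sums could not lie below it and say little. Visceral endoderm-like cells held 49 and 32 UMIs against 45.5 and 25.4 expected. The other 4 sums lay above the range, at 33 UMIs against 22.2 expected in mesenchyme-like cells of WT host library 1, 28 against 17.5 in cardiomyocyte-like cells of library 2, 11 against 3.33 in unnamed cluster 17 of library 2 and 2 against 0.180 in parietal endoderm-like cells of library 2. The plot of counted against expected Mrap shows the classes along the line of equality.

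**Figure D3:**
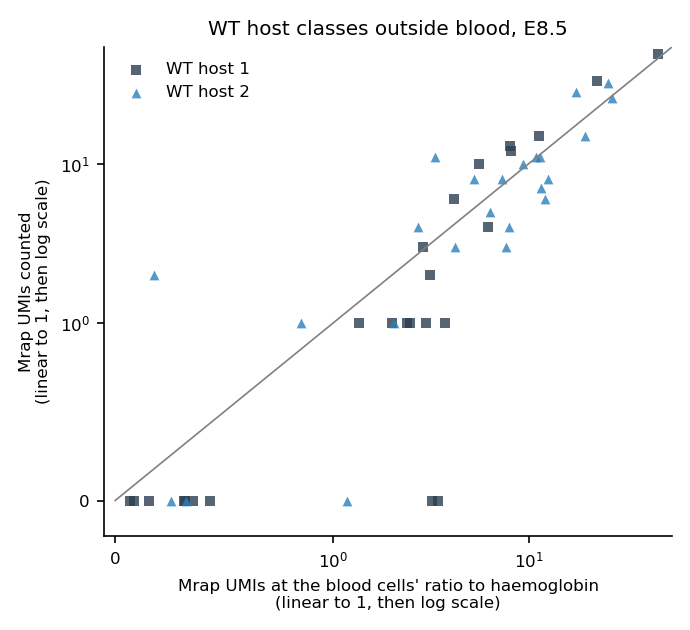
Mrap UMIs counted in each WT host class outside the blood at E8.5 (vertical axis) against those expected from the haemoglobin UMIs of the class and the Mrap to haemoglobin ratio of the blood cells of the same library (horizontal axis), with 1 point per class and library on axes that are linear up to 1 and logarithmic above. Of 49 sums, 45 lie within the Poisson range around the line of equality and 4 lie above it.

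Among the 23 other classes with enough cells to be fitted, Mrap had every Tet-TKO library below every WT host library in 15. It passed the filter on low counts in 6 and was called lower in 3, the erythroid-like, cardiomyocyte-like and mesenchyme-like classes. Over these classes together, 0.374% of tests were called lower and 13.9% had no overlap in this direction. Both shares cover only genes that passed the filter in a class, while the 15 classes of Mrap include some where it did not. In cardiomyocyte-like cells Mrap was at 0, 0, 0.235 and 0 CPM in Tet-TKO libraries and at 4.35 and 10.5 CPM in WT host libraries, with a log2 fold change of −5.84 ± 0.81 (SE, edgeR adjusted p = 0.00379). In mesenchyme-like cells it was at 0 in all 4 Tet-TKO libraries and at 7.26 and 5.89 CPM in WT host libraries (edgeR adjusted p = 0.00673). The number of classes called fell to 1 without Tet-TKO library 3 and without either WT host library. With like libraries summed Mrap was called in 4 of 22 classes fitted. The 17 classes not tested held 5 Tet-TKO and 107 WT host Mrap UMIs.

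Gm42047 had lower levels in Tet-TKO than in WT host libraries in all 23 other classes that were fitted. Outside the blood it stood at 0.301, 0.752, 1.24 and 1.11 CPM in Tet-TKO libraries and at 24.2 and 28.1 CPM in WT host libraries, and its log2 fold change was −4.97 ± 0.42 (SE, edgeR adjusted p = 0.00318). Without Tet-TKO library 2 or either of WT host libraries 1 and 2 the edgeR adjusted p-values were 0.0134, 0.0227 and 0.0109, which ended the call. This call was also lost with like libraries summed, as given below. Its counts were far above those expected from blood RNA, with 2350 and 2316 UMIs counted in WT host libraries 1 and 2 against 20.5 and 24.3 expected at its ratio to haemoglobin in the blood cells. In all 23 other classes every Tet-TKO library with at least 10 cells lay below every WT host library. Of all tests over these classes, which cover only genes that passed the filter, 13.9% did so and 0.374% were called lower. Gm42047 was called lower in 17 of the 20 that could be tested, at log2 fold changes of −8.97 to −1.87 and a median of −5.05 over the 20. The number of classes called was 5 without WT host library 1 and 5 without WT host library 2. With like libraries summed Gm42047 was called in 18 of 22 classes fitted.

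The weakest of these log2 fold changes, −1.87, was that of the erythroid-like class. In allantois-like cells, at the other end, Gm42047 stood at 0, 0, 0.115 and 0 CPM in Tet-TKO libraries and at 14.0 and 12.4 CPM in WT host libraries. In brain and spinal cord-like cells it stood at 37.8 and 41.0 CPM in WT host libraries and at 0.739 to 1.56 CPM in Tet-TKO libraries, with a log2 fold change of −5.13 ± 0.24 (SE, edgeR adjusted p = 9.489e-05). The 3 classes that were tested and not called were haematoendothelial progenitor-like cells (edgeR adjusted p = 0.0667), presomitic mesoderm-like cells (0.0797) and unnamed cluster 34 (0.445). In haematoendothelial progenitor-like cells, from which blood progenitors arise, Gm42047 stood at 0.152, 0.165, 0 and 9.18 CPM in Tet-TKO libraries and at 18.5 and 16.0 CPM in WT host libraries. Of the 13 UMIs in Tet-TKO library 4, 12 lay in 1 cell without tdTomato. Without that library the log2 fold change was −6.74 (edgeR adjusted p = 6.563e-05).

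**Figure D4:**
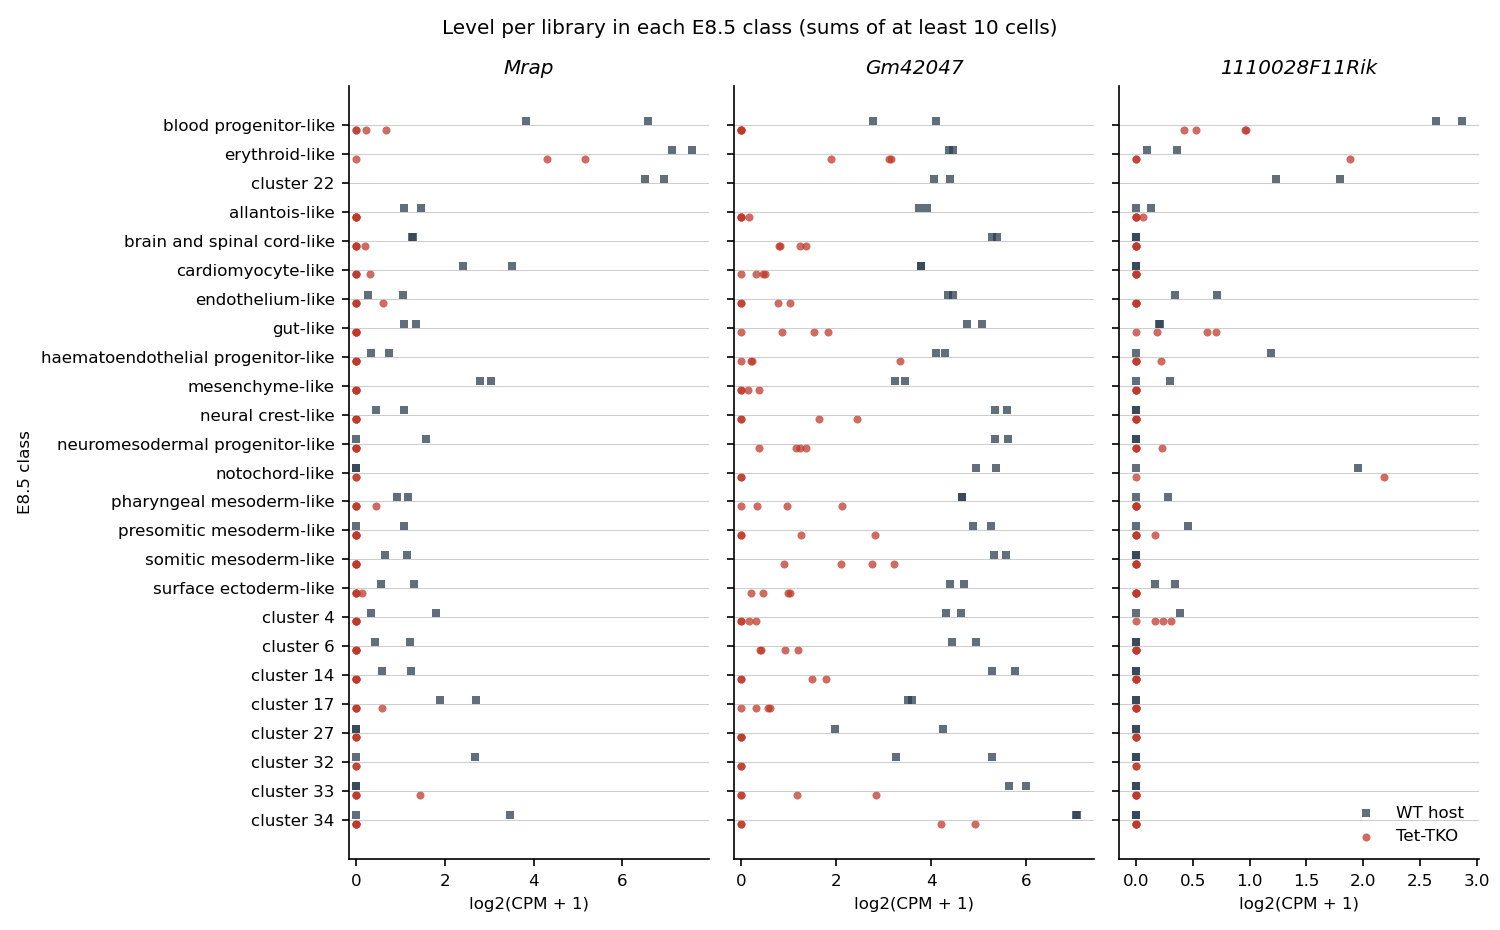
Level of each member in the E8.5 classes (vertical axis), as log2(CPM + 1) on the horizontal axis, with 1 point per library (grey squares WT host, red circles Tet-TKO) for sums of at least 10 cells. Gm42047 separates the genotypes in all 23 classes other than blood progenitors. In WT host cells Mrap is high in the erythroid-like and blood progenitor-like classes and 1110028F11Rik in blood progenitors.

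1110028F11Rik was scarce outside blood progenitors in both genotypes. Outside the blood it stood at 0.0163, 0.0362, 0.0337 and 0.0651 CPM in Tet-TKO libraries and at 0.196 and 0.158 CPM in WT host libraries, from 13 and 32 UMIs. The groups did not overlap and the pooled level was 5.27-fold lower, but the log2 fold change of −2.27 ± 0.49 (SE) did not pass the threshold (edgeR adjusted p = 0.0377). It passed the filter on low counts in none of the 23 other classes, which together held 14 Tet-TKO and 28 WT host UMIs, so that a difference in a single class was not detectable at this depth. In 2 of the 23 every Tet-TKO library lay below every WT host library. Among genes that passed the filter 13.9% of tests over these classes did so, and nothing is read from the 2. In WT host blood progenitor-like cells 7.96% and 7.10% of cells held a UMI, at 18954 and 16660 UMIs per median cell. In brain and spinal cord-like cells there was none in 476 and 805 cells, which allows shares of up to 0.630% and 0.373%.

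The order of levels across WT host classes differed between the members. For Mrap it ran from the erythroid-like class (138 and 190 CPM) through unnamed cluster 22 (90.9 and 121 CPM), in which erythroid markers ranked first, to blood progenitor-like cells (13.1 and 94.4 CPM), and neighbours in this order overlapped between their libraries only for the last pair. Next among classes with a UMI in both libraries came cardiomyocyte-like, visceral endoderm-like (4.16 and 9.96 CPM) and mesenchyme-like cells, whose ranges overlapped. For Gm42047 the highest levels were those of unnamed cluster 34 (133 and 132 CPM) and cluster 33 (63.0 and 48.8 CPM). The level of cluster 34 rests on 19 UMIs among 143597 in 59 WT host cells. Next came cluster 14 (53.5 and 38.0 CPM), neuromesodermal progenitor-like (47.8 and 39.3 CPM), neural crest-like (39.8 and 47.2 CPM) and somitic mesoderm-like cells (39.2 and 46.3 CPM), which overlapped one another. The lowest were visceral endoderm-like (9.85 and 8.09 CPM) and mesenchyme-like cells (9.90 and 8.39 CPM), with blood progenitor-like cells (5.88 and 16.2 CPM) spanning both. For 1110028F11Rik, among classes with a UMI in both libraries, blood progenitor-like cells came first, followed by cluster 22 (2.48 and 1.35 CPM) and visceral endoderm-like cells (0.934 and 1.56 CPM), and the last pair overlapped.

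At E7.5, with 1 library of each genotype, levels were compared with no test. No cell class was named blood progenitor-like at this stage. The blood cells formed 1 cluster, named erythroid-like, with 39 Tet-TKO and 496 WT host cells. Its erythroid markers summed to 173 CPM in Tet-TKO and 2076 CPM in WT host cells, with Hba-a1, Hba-a2, Hemgn and Slc4a1 at 0 in the former. Blood progenitor markers summed to 1080 and 1620 CPM and haematoendothelial markers to 809 and 776 CPM, so that the name goes against the markers of the Tet-TKO cells. None of the members had a UMI in these Tet-TKO cells, and the part of the difference in erythroid markers was not tested. WT host cells held 41 Mrap UMIs (5.30 CPM), 160 Gm42047 UMIs (20.7 CPM) and 21 1110028F11Rik UMIs (2.72 CPM). Set against the floor of 3 counts, 2.66 CPM, the Tet-TKO levels were at least 1.996-fold, 7.79-fold and 1.02-fold lower. All 39 Tet-TKO cells had a haemoglobin share under 0.1%. In the 301 WT host cells of that share Mrap stood at 2.18 CPM and 1110028F11Rik at 2.61 CPM, with haemoglobin left out of the total. Both lie under the floor, so a difference of these members was not detectable among cells of that share. Gm42047 stood at 21.99 CPM there, above the floor. Outside the blood, Gm42047 had 23 UMIs in Tet-TKO cells (0.251 CPM) and 2804 in WT host cells (30.3 CPM), a 120-fold lower level with a counting interval of 80.1 to 190. Mrap had 2 and 11 UMIs there, a ratio of 5.43 with an interval of 1.19 to 50.4, and 1110028F11Rik 2 and 7 UMIs, a ratio of 3.46 with an interval of 0.658 to 34.1. The WT host level of Gm42047 outside the blood was thus of the same order at E7.5 as at E8.5, and that of Mrap was lower, 0.119 CPM against 1.58 and 2.48 CPM.

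To place the members among other genes, the 5 genes most like each were taken by the Pearson correlation of log2(CPM + 1) over 26 classes, each the mean of the WT host libraries at E8.5, out of 17437 genes. These correlations describe the classes, which share libraries, and carry no test. Among those most like Mrap were Hbb-bh1, Hba-x and Hbb-y, which encode embryonic globins, and Alas2, the first enzyme of haem synthesis in erythroid cells, with r from 0.962 to 0.973. These 4 were also on the erythroid marker list. In blood progenitor-like cells none of these 4 was called, and none had an unadjusted edgeR p under 0.05, against 0.217% and 9.66% of all genes tested. Alas2 stood at 21.7, 56.7, 56.3 and 32.4 CPM in Tet-TKO libraries and at 23.1 and 140 CPM in WT host libraries. Alas2 thus overlapped between the genotypes in these cells. Mrap did not, but its choice on this class fixes that, so nothing is read from the contrast. Outside the blood Alas2, Hba-x and Hbb-y were called lower with log2 fold changes of −5.11, −5.76 and −6.00, beside the −6.33 of Mrap. Hbb-bh1 was at −4.94 there and was not called (edgeR adjusted p = 0.0198). Of all genes tested outside the blood, 1.37% were called lower.

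The genes most like Gm42047 were Igsf9b, Gm21926, Phf21b, Mcm9 and Rif1, with r from 0.861 to 0.921. Each was highest in unnamed cluster 34, where the WT host level of Gm42047 rests on 19 UMIs. None of these genes was called by edgeR in blood progenitor-like cells, where 0 had an unadjusted p under 0.05, or outside the blood, where 1 did. Among all genes tested, 0.217% were called and 9.66% had such a p in blood progenitor-like cells, against 1.76% and 22.1% outside the blood. Rif1, a regulator of replication timing and DNA repair, stood at 94.3, 89.4, 133 and 130 CPM in Tet-TKO and at 93.2 and 91.1 CPM in WT host blood progenitor-like cells. Those most like 1110028F11Rik were Fyb, Gml, Gml2, Il10ra and Pstpip2, with r from 0.823 to 0.856. Fyb, an adaptor protein of T cells, myeloid cells and platelets, stood at 1.61, 1.20, 2.53 and 0.476 CPM in Tet-TKO and at 14.0 and 13.6 CPM in WT host blood progenitor-like cells. It was called lower with a log2 fold change of −3.21 ± 0.36 (SE, edgeR adjusted p = 0.00597), the only one of the 12 tested of these 15 genes, and its call ended when either of Tet-TKO libraries 1 and 2 or WT host library 2 was left out, with 0 of the genes then called. Myeloid and megakaryocyte markers also summed lower in the Tet-TKO libraries of this class, as given above, and their part in the Fyb call was not tested. Gml stood at 6.88, 9.42, 4.43 and 2.86 CPM in Tet-TKO and at 6.79 and 3.095 CPM in WT host libraries, which overlapped.

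The genes around the members were looked at next, to see whether a difference extended along the chromosome. Within 100 kb of the 3 members lay 28 annotated genes, of which 27 were in the files. In blood progenitor-like cells 9 were tested and none was called by edgeR, 3 had an unadjusted p under 0.05, and DESeq2 called 1. Over all genes tested in this class edgeR called 0.217%, and 9.66% had an unadjusted p under 0.05. Klhdc4 lies 3678 bases from Gm42047 on the opposite strand. In blood progenitor-like cells it stood at 16.1, 18.5, 17.4 and 14.3 CPM in Tet-TKO libraries and at 27.2 and 49.5 CPM in WT host libraries, with a log2 fold change of −1.29 ± 0.26 (SE, edgeR adjusted p = 0.0672). Outside the blood it stood at 16.4, 16.9, 19.7 and 18.2 CPM in Tet-TKO and at 44.1 and 46.8 CPM in WT host libraries. There it was called lower with a log2 fold change of −1.34 ± 0.087 (SE, edgeR adjusted p = 0.00183), the only one of 15 neighbours tested outside the blood, where 1.76% of all genes were called. Slc7a5, an amino acid transporter 39972 bases from Gm42047, stood at 1.85, 1.73, 3.33 and 3.84 CPM in Tet-TKO and at 6.92 and 7.31 CPM in WT host cells outside the blood, with no overlap (log2 fold change −1.42 ± 0.30, SE, edgeR adjusted p = 0.0350).

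**Figure D5:**
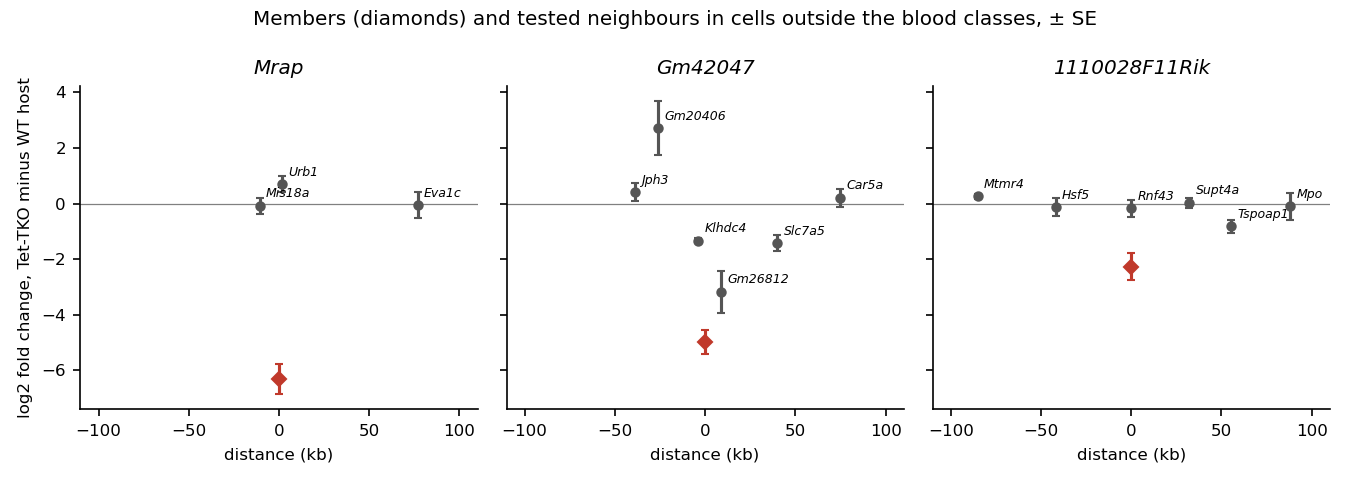
Log2 fold change, Tet-TKO minus WT host, of each tested gene within 100 kb of a member against its distance from that member in kb, in cells outside the blood at E8.5, with bars of 1 SE. The members are the red diamonds at distance 0. Klhdc4, next to Gm42047, is the neighbour called lower outside the blood.

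Next to Mrap the nearest tested gene, Urb1, 1742 bases away, stood at 13.3, 11.5, 18.7 and 23.3 CPM in Tet-TKO and at 9.05 and 9.29 CPM in WT host blood progenitor-like cells, above in every Tet-TKO library and not called (log2 fold change 0.75 ± 0.29, SE, edgeR adjusted p = 0.435). Mis18a, 10803 bases away, stood at 40.8, 52.1, 31.6 and 26.2 CPM in Tet-TKO and 46.6 and 41.0 CPM in WT host libraries, which overlapped. Rnf43, the host gene of 1110028F11Rik, was at 0 to 0.514 CPM in all 6 libraries of this class and was too low to be tested. Supt4a, a transcription elongation factor 32221 bases from 1110028F11Rik, stood at 398, 386, 323 and 306 CPM in Tet-TKO and at 362 and 374 CPM in WT host libraries.

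Of 24 genes listed for the melanocortin and ACTH pathway, in which Mrap acts, 23 were in the files. In blood progenitor-like cells 12 passed the filter, none was called by edgeR or DESeq2 in either direction, and 3 had an unadjusted edgeR p under 0.05, against 9.66% of all genes. The median log2 fold change of the 12 was 0.18. Among the receptors, no UMI of Mc2r, the ACTH receptor that Mrap serves, of Mc3r or of Mc4r was found in this class in any library, and Mc5r had 28 Tet-TKO and 5 WT host UMIs. Mrap2, the paralogue of Mrap, and Agrp, an antagonist of melanocortin receptors, were also at 0. Pomc, the precursor of ACTH, stood at 4.54, 4.97, 4.11 and 8.57 CPM in Tet-TKO and at 7.24 and 5.95 CPM in WT host libraries, which overlapped. Of the steroid synthesis genes, Nr5a1 and Cyp11a1 were at 0 in this class. Hsd3b1 stood at 4.24, 11.1, 9.17 and 12.4 CPM in Tet-TKO and at 1.36 and 3.93 CPM in WT host libraries, with a log2 fold change of 1.45 that was not called. Gnas, the G protein that couples these receptors to adenylate cyclase, stood at 594, 588, 619 and 601 CPM in Tet-TKO and at 644 and 576 CPM in WT host libraries. Outside the blood 16 of the 23 were tested, none was called by edgeR, and 1 had an unadjusted p under 0.05, against 22.1% of all genes.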

How the data were processed

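Single cells were profiled in 8 libraries of chimaeric embryos, 4 Tet-TKO and 2 WT host at E8.5 and 1 of each at E7.5. The deposited files hold raw UMI counts per gene and cell, which the authors made with Cell Ranger from reads mapped to mm10 with a tdTomato sequence added. The version of Cell Ranger differs between the sources used here and is not given. No column belonged to another sample.

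Cells with at least 1500 UMIs, at most 30% mitochondrial and 35% ribosomal UMIs were kept, as in the study's methods, and doublets were not called. They were clustered per stage (2500 variable genes without the members, the pathway genes and haemoglobin, 50 principal components, mutual nearest neighbours between libraries, Leiden resolution 2, scanpy 1.11.5 and leidenalg 0.10.2 in Python 3.11.15) and named as X-like from marker lists where at least 3 markers were raised. Classes rebuilt here may differ from those of the study. Counts were summed per class and library (at least 10 cells) and tested with edgeR 4.0.16 (filterByExpr, TMM, quasi-likelihood test) in R 4.3.3, with Benjamini-Hochberg adjustment over all genes of the fit. A call needed an adjusted p of at most 0.01 and an absolute log2 fold change of at least 1. An exact permutation test of 4 against 2 libraries, with its one-sided p doubled, cannot go below 0.133. On simulated data edgeR found 99.5% of 200 genes given a log2 change of 2 in the blood progenitor class (10101 genes) and 100% outside the blood (20052 genes). The changed genes were drawn from those above the median level, with the same spread for every gene and independent libraries. These shares therefore do not describe genes with few UMIs, such as 1110028F11Rik. Intervals are 95% Poisson intervals. CPM were computed from the summed counts.

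The members, the marker lists and the pathway list were chosen with earlier results of these data known. The genes named are the members, the 5 genes most like each (1 is not reported here), annotated genes within 100 kb (GENCODE M21), the pathway list and blood markers. Alternatives were DESeq2 1.42.0, its size factors, no filter, each library left out, the replicate number as a block, like libraries summed, another clustering, tdTomato-matched cells, haemoglobin left out and free RNA taken off. The paper sorted pooled chimaeras into a tdTomato-positive and a tdTomato-negative tube and compared each Tet-TKO sample with its matching host. Tet-TKO and WT host libraries may thus share embryo pools, which the main fits did not take into account. Replicate numbers 1 and 2 were not taken to pair libraries, and whether they do could not be decided.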

Additional observations from a re-analysis of the deposited data

Results flagged for a closer look

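In 7 of the 28 groups of 4 Tet-TKO libraries tested, 1 library stood apart from the others by Dixon's test. By chance this rule marks a small share of groups, but it always marks a group in which only 1 library has a UMI. Only 2 of the 7 rest on more than 1 UMI. Gm42047 stood at 59.0 CPM in erythroid-like cells of Tet-TKO library 4, from 9 UMIs in 7 cells without tdTomato, against 2.69 to 7.84 CPM in the other libraries. It stood at 9.18 CPM in haematoendothelial progenitor-like cells of the same library, from 13 UMIs in 19 cells, 12 of them in 1 cell without tdTomato.

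The other 5 were single UMIs where the other Tet-TKO libraries had none, a pattern that the rule always marks, so nothing is read from them. Gm42047 stood at 0.115 CPM in allantois-like cells of Tet-TKO library 3. Mrap stood at 0.516 CPM in endothelium-like and 0.235 CPM in cardiomyocyte-like cells of Tet-TKO library 3. 1110028F11Rik stood at 2.69 CPM in erythroid-like cells of Tet-TKO library 1 and at 0.165 CPM in haematoendothelial progenitor-like cells of Tet-TKO library 2.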

How the results depend on the processing

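In blood progenitor-like cells the mean level of each member was lower in Tet-TKO libraries under the alternatives run, a direction that the selection on this class fixes. With cells that held no myeloid or megakaryocyte marker UMI, an alternative added after the data were seen, the difference of 1110028F11Rik in mean level shrank from −5.12 to −0.81 CPM and the libraries overlapped. Leaving out 1 library gave −94.2 to −12.9 CPM for Mrap, −16.2 to −5.88 for Gm42047 and −5.67 to −4.57 for 1110028F11Rik.

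Outside the blood, log2 fold changes kept their sign but not every call. Mrap was −6.30 with like libraries summed (edgeR adjusted p = 0.0217), −4.91 with free RNA taken off at the brain rate (0.0392) and −7.02 to −5.98 over single libraries left out. With blood RNA taken off, 12 and 0 WT host UMIs were left and no fit was possible. Gm42047 was −4.94 with like libraries summed (0.0217) and −5.18 to −4.69 over libraries left out. With free RNA taken off at the brain rate, 0 UMIs of Gm42047 were left in either WT host library and 44 in Tet-TKO library 3. No fit of Gm42047 was possible there. Brain cells express Gm42047, so this rate cannot stand for its free RNA, and nothing is read from it. In erythroid-like cells without correction between libraries, Mrap was −1.92 (0.0738) and Gm42047 −0.78 (0.274). Over libraries left out Mrap was −4.17 to −2.95 and Gm42047 −2.15 to −1.76. With blood RNA taken off, the Mrap value of this class reversed to 7.89, which follows from the alternative removing the Mrap of the class itself. In tdTomato-matched cells erythroid-like sums were too small to fit.

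Replicate numbers 1 and 2 are shared by the genotypes. Deviations from the group mean correlated at r = 0.338 and −0.07 in the same-numbered pairs. With only 2 WT host libraries their deviations mirror each other, so this check cannot tell whether the numbers pair libraries. With the number as a replicate block, 1110028F11Rik outside the blood was −2.64 (edgeR adjusted p = 0.0067, now called), Gm42047 in erythroid-like cells −2.07 (0.0147, no longer called), Mrap was called in 6 classes and 2 of the most similar genes were called. For haematoendothelial progenitor-like cells Gm42047 was also called with no filter (−4.03), with the block (−6.48) and in tdTomato-matched cells (−6.60).

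Mrap was called lower in 3 other classes, in 6 by DESeq2, in 8 with no filter, in 1 of the 12 classes that could be fitted without correction between libraries and in 1 to 2 with 1 library left out. Gm42047 was called in 17 of 23 fitted, in 8 of 12 without correction and in 5 to 18 with 1 library left out. Of the most similar genes 1 was called, 3 with no filter, 0 without correction and 0 to 1 over libraries left out. Of the neighbours none was called, 1 by DESeq2, 1 with no filter, 2 without correction and 0 to 1 over libraries left out. 1110028F11Rik was called in 0 other classes and the pathway list gave 0 calls under every alternative run. Depth limits 1110028F11Rik, which had 13 and 32 UMIs outside the blood. Where the causes of these changes are not named, the cause was not tested.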

Other observations

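Unnamed cluster 22, in which erythroid markers ranked first, held 744 WT host cells and 2 cells of the Tet-TKO libraries and so entered no fit. It was part of the wider haemoglobin bins given above. In WT host libraries 1 and 2 Mrap stood there at 90.9 and 121 CPM, 1110028F11Rik at 2.48 and 1.35 CPM, and Gm42047 had 163 and 89 UMIs. The cells of Tet-TKO libraries 2 and 3, 1 each, held 4 and 6 Mrap UMIs, or 284 and 78.4 CPM. They held no UMI of the other members. In the whole of library 2, cells with tdTomato held 6 Mrap UMIs, of which 5 lay in erythroid-like cells. In the whole of library 3 such cells held 4. Both cells of cluster 22 were therefore without tdTomato. The pooled ratio of Mrap in WT host cells to these cells was 0.905, with a counting interval of 0.491 to 1.89. Nothing is read from this ratio for Tet-TKO cells.

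Among 28 annotated neighbours, Gm26812, 9016 bases from Gm42047, stood at 0, 0.0362, 0.0112 and 0.0163 CPM in Tet-TKO and at 0.175 and 0.134 CPM in WT host cells outside the blood, from 6 and 28 UMIs (log2 fold change −3.17 ± 0.76, SE, edgeR adjusted p = 0.0532). Gm20406, 25878 bases away, went the other way, with 0.0651, 0.0543, 0.27 and 0.26 CPM in Tet-TKO and 0.0310 and 0.0121 CPM in WT host cells (log2 fold change 2.72 ± 0.98, SE, edgeR adjusted p = 0.164). Neither was called.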
